A study of Absidia caerulea with 2 samples.

Results

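In mycelium of the filamentous fungus Absidia caerulea, 47 groups of assembled transcripts were at least 2-fold lower 2 h after a steroid was added than after its solvent alone. They were 47 of 8605 groups compared and of 34166 in all. The series holds 2 RNA-seq libraries of wild-type strain AS3.65, which the labels also name A. coerulea and A. orchidis. Young germinated mycelium from potato dextrose broth was transferred into 30 ml of phosphate buffer (potassium salt) for another 2 h. The RSA library (n = 1) came from mycelium given 170 mg/L of RSA, 11-deoxycortisol 21-acetate, in N,N-dimethylformamide, and the mock library (n = 1) from mycelium given an equal volume of that solvent. Both cultures thus shared the transfer to buffer and the solvent, and no library of untransferred or solvent-free mycelium was analysed here.

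Absidia species belong to the Mucorales, fast-growing molds long used to hydroxylate steroids. In fungi such hydroxylations are carried out by cytochrome P450 enzymes, membrane-bound haem proteins that receive electrons from a reductase. Fungi respond to foreign compounds and to a change of medium by raising some transcripts and lowering others, and a lower transcript level can come from less synthesis, from faster decay, or from both. The series title names the search for the enzymes of 11β-hydroxylation. The transcripts described here were lower with RSA, and without names it cannot be told whether any of them codes for such an enzyme.

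Transcripts are listed as features of a de novo assembly, with no gene name, description or sequence beside them. A cluster is the set of features whose identifiers share a stem, which come from the same connected component of the assembly. Expected counts, estimated read numbers that need not be whole, were summed over each cluster and divided by the library total to give CPM, the count scaled to a fixed library size. A cluster was taken as lower if it had 100 or more counts over both libraries and if its CPM, after 3 counts had been added to each sum, was at least 2-fold lower with RSA. The values that chose the 47 clusters are therefore given as a description. With 1 library per group no test was possible, and no p-value is given. Intervals of ratios and of shares of counts are exact 95% Clopper-Pearson counting intervals that leave out variation from culture to culture. No replicate backs the ratios, and in such bulk RNA fewer cells of a kind and less RNA per cell cannot be told apart.

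Total depth was nearly equal, with 8923379 expected counts with RSA and 8904820 in mock, but fewer clusters were detected with RSA. A TPM above 0 was listed for 23234 of the 34166 clusters with RSA and for 28861 in mock. All 47 lower clusters had a TPM above 0 in mock, and 12 of them had none with RSA. Those 12 were thus a small part of this gap. The 47 lower clusters made up 0.546% of the 8605 compared, and 102 clusters (1.19%) were at least 2-fold higher by the mirrored rule. The median log2 ratio of RSA over mock over all 8605 clusters was -0.045. Together the lower clusters took 0.0410% of the RSA counts (0.0397% to 0.0424%) and 0.310% of the mock counts (0.306% to 0.313%). In the TPM scale, which divides by length, they took 0.0272% of the RSA total and 0.704% of the mock total. They were a small part of either library.

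The lower clusters fell into separate ranges of size with an empty stretch between them. By the rule's own value, 33 clusters were 2.004- to 3.78-fold lower and 14 were at least 23.8-fold lower, with none in between. Of the 14, 12 had no count with RSA and 2 had a few counts. These 12 were all of the compared clusters without an RSA count, since the rule takes in every such cluster, whereas 8 compared clusters had no mock count. The sources used here do not say whether both libraries contributed equally to the assembly, and the part of this in the 12 was not tested. Among the 102 higher clusters the same stretch was filled, with 55 under 4-fold, 34 from 4-fold to under 20-fold and 13 at 20-fold or more. Whether the empty stretch differs from the pattern of the higher clusters was not tested.

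**Figure D1:**
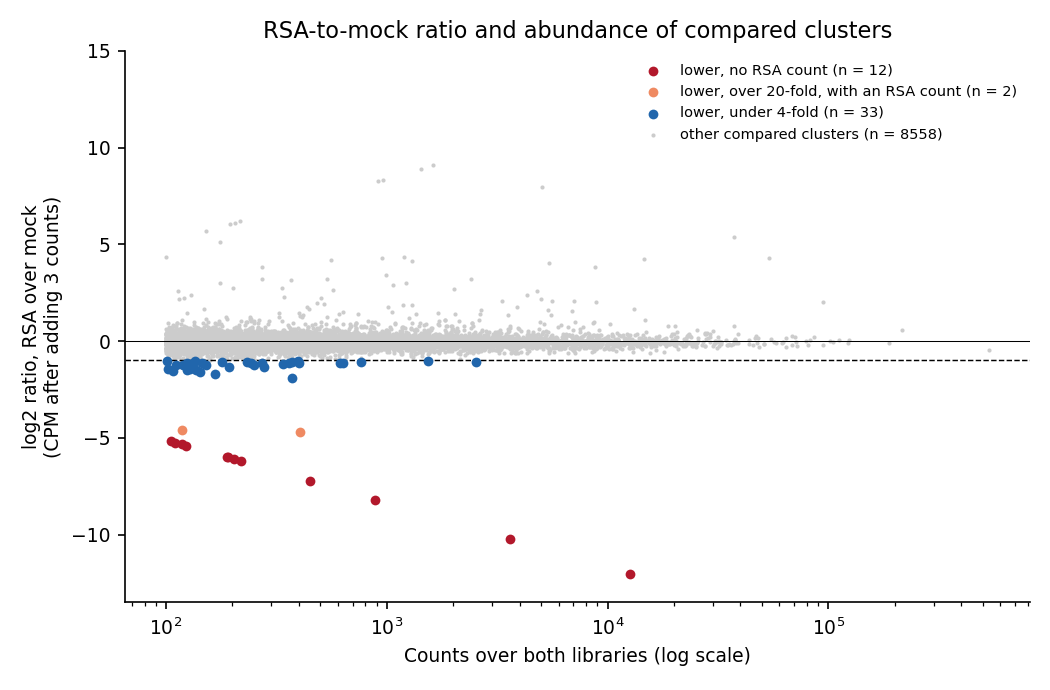
Log2 ratio of RSA over mock (vertical axis, CPM after adding 3 counts) against counts over both libraries (horizontal log axis) for 8605 clusters, 1 point each. Blue points are the 33 clusters under 4-fold lower, orange points the 2 clusters over 20-fold lower with an RSA count, and red points the 12 clusters without one; the dashed line marks 2-fold lower, and the stretch between the blue and the other coloured points is empty.

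The most abundant of the lower clusters in mock, TRINITY_DN8460_c2, had 0 counts with RSA and 12604 counts in mock. Its level was 0 TPM with RSA and 2895 TPM in mock, where it ranked 44 among the 28861 clusters with a TPM above 0. A count of 0 allows up to 3 counts, or 0.336 CPM in the RSA library, which puts its level at least 4210-fold lower by that floor. The exact counting interval, which also holds the error of the mock count, starts at 3423-fold. For the 12 clusters without an RSA count the bounds given as "at least" follow the floor, and the intervals start lower, at 28.0- to 3423-fold. It holds 2 features without alternative transcripts, and both were absent from the RSA counts. The feature of 666 nucleotides (nt) had 0 counts with RSA and 9739 in mock, and the feature of 417 nt had 0 with RSA and 2865 in mock.

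The second, TRINITY_DN13509_c0, is 1 feature with 5 transcripts and an average length of 4754 nt in mock. It had 0 counts with RSA and 3618 counts in mock (52.9 TPM), at least 1209-fold lower by the floor, with an interval that starts at 982-fold. These clusters differ widely in length and in level per length. Together they held 16222 counts in mock, 58.8% of all mock counts of the 47 clusters. Without them, the other 45 summed to 3662 counts with RSA and 11348 counts in mock, a ratio of 3.11.

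A further 6 clusters without an RSA count were short, made of 11 features of 254 to 320 nt. The largest held 4 features of 300 to 308 nt and had 0 counts with RSA and 888 counts in mock (1332 TPM), at least 297-fold lower. Each of its 4 features had 0 counts with RSA, against 378, 34, 237 and 239 counts in mock. A single feature of 306 nt had 0 counts with RSA and 449 counts in mock (663 TPM), at least 149.98-fold lower. Thus no count was left in any feature of either cluster.

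The other 4 short clusters had 118 to 204 counts in mock. A single feature of 320 nt had 0 counts with RSA and 204 counts in mock (241 TPM), at least 68.1-fold lower. A single feature of 305 nt had 0 counts with RSA and 190 counts in mock (285 TPM), and a single feature of 291 nt had 0 with RSA and 118 in mock (229.8 TPM). The cluster with the shortest longest feature, 277 nt, held 3 features, which had 0 counts each with RSA and 69.8, 77 and 41.2 counts in mock. The TPM values of short features rest on small divisors, since the effective length, the number of positions at which a fragment can start, was only 13.8 to 55.5 nt in mock for these 11 features. At 2037 counts the 6 clusters had fewer reads in mock than TRINITY_DN13509_c0 alone, but they summed to 3412 TPM.

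Of 70 compared clusters whose longest feature was under 350 nt, a limit set after the values were seen, 6 were lower (8.57%, against 0.546% of all compared clusters) and 0 were higher. The 64 others lay between 0.518 and 1.60 in fold lower by the rule's value, with a median of 1.04, where values below 1 mean higher with RSA. Each of the 70 thus either had no count with RSA or lay within 2-fold in these libraries.

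The last 4 clusters without an RSA count were longer and scarcer. A cluster of 2 features of 1633 and 1629 nt had 0 counts with RSA and 219 counts in mock (10.5 TPM), at least 73.2-fold lower. Its features had 0 counts each with RSA, against 151 and 68 counts in mock. A feature of 2959 nt had 0 counts with RSA and 123 in mock (3.0 TPM), at least 41.1-fold lower. These long features were covered thinly in mock compared with the short ones.

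A feature of 1630 nt with 3 transcripts had 0 counts with RSA and 110 in mock (5.30 TPM), at least 36.7-fold lower. A feature of 2197 nt had 0 counts with RSA and 105 in mock (3.57 TPM), at least 35.1-fold lower. At these mock counts the floor of 3 counts sets the bound, so that the order of the bounds is the order of the mock counts and not an order of response. In all, the 12 clusters held 18816 counts in mock, and the median length of their longest feature was 493 nt against 1530 nt over the 8605 compared clusters.

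**Figure D2:**
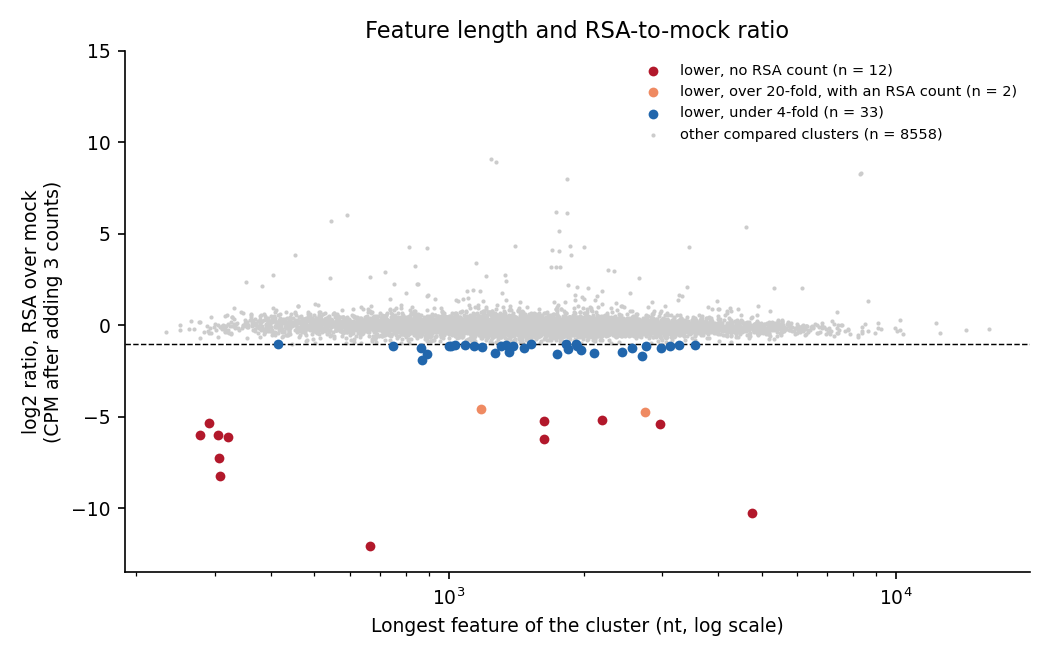
Log2 ratio of RSA over mock (vertical axis, CPM after adding 3 counts) against the length of the longest feature (horizontal log axis, nt) for 8605 clusters. Red points, the 12 clusters without an RSA count, include 6 between 277 and 320 nt, while blue points, the 33 clusters under 4-fold lower, start at 414 nt.

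In 2 clusters over 20-fold lower a few RSA counts remained. The first, made of 2 features with a longest average length of 2741 nt in mock, had 12 counts with RSA and 391 counts in mock, 32.7-fold lower (18.5 to 63.7). The average transcript length of its main feature, weighted by abundance, was 1139 nt with RSA and 2741 nt in mock. That feature has 9 transcripts, and the RSA average rests on 12 counts.

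The second, made of 4 features of up to 1182 nt, had 2 counts with RSA and 116 counts in mock, 58.1-fold lower (15.7 to 486). Its counts did not come from the same features in the 2 libraries. The RSA counts lay in a feature of 453 nt, with 2 counts with RSA and 0 in mock. The mock counts lay in features of 1182 nt, with 0 counts with RSA and 109.9 in mock, and of 719 nt, with 0 with RSA and 6.10 in mock. The features that carried this cluster in mock were thus without a count with RSA.

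The other 33 clusters were lower by less than 4-fold and kept 26 to 815 counts with RSA. Their mock counts were 69 to 1717, and the summed counts were 3648 with RSA and 8247 in mock, a ratio of 2.27. On the unadjusted scale their ratios were 2.06- to 3.89-fold with a median of 2.25-fold. For 22 of the 33 the ratio was under 2.5-fold, and for 6 it was at least 3-fold. The rule itself sets the lower end of this range.

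The most abundant of them was a feature of 3553 nt with 4 transcripts, at 815 counts with RSA and 1717 counts in mock. Its level was 17.3 TPM with RSA and 34.3 TPM in mock, and it was 2.11-fold lower (1.94 to 2.30). A cluster of 2 features of 1921 and 1730 nt had 502 counts with RSA and 1035 counts in mock, 2.07-fold lower (1.86 to 2.30). In it the longer feature had 34.7 counts with RSA and 123.9 in mock, and the shorter had 467 with RSA and 911 in mock. Both features were lower, the scarcer one by 3.58-fold and the other by 1.95-fold. These 2 clusters were the only ones under 4-fold lower with 1000 or more mock counts.

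Next came 3 clusters with 194 to 246 counts with RSA. A single feature of 1339 nt had 246 counts with RSA and 518 counts in mock, 2.11-fold lower (1.81 to 2.47). A single feature of 1933 nt had 200 counts with RSA and 435 counts in mock, 2.18-fold lower (1.84 to 2.59). A cluster with a longest feature of 3127 nt had 194 counts with RSA and 420 counts in mock, 2.17-fold lower (1.83 to 2.59). All 3 were near the 2-fold limit, and their counting intervals reached below it.

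The steepest ratio among the 33 belonged to a single feature of 870 nt. It had 76 counts with RSA and 295 counts in mock, or 8.89 TPM with RSA and 32.3 TPM in mock. The ratio was 3.89-fold (3.01 to 5.07), and its interval lay wholly beyond 2-fold. In all, 6 of the 33 clusters were at least 3-fold lower with an interval wholly beyond 2-fold.

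Among these 6, a feature of 2702 nt with 4 transcripts had 38 counts with RSA and 129 in mock, 3.40-fold lower (2.35 to 5.02). A feature of 1746 nt with 5 transcripts had 34 counts with RSA and 108 in mock, 3.18-fold lower (2.15 to 4.83). A feature of 893 nt with 5 transcripts had 26 counts with RSA and 82 in mock, 3.16-fold lower (2.01 to 5.12). These 3 were scarce, at 1.10 to 3.08 TPM with RSA and 3.48 to 8.63 TPM in mock. A feature of 1264 nt had 31 counts with RSA and 94 in mock, 3.04-fold lower (2.01 to 4.72). A cluster with a longest feature of 2108 nt had 34 counts with RSA and 102 in mock, 3.01-fold lower (2.02 to 4.57).

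Another 5 clusters under 4-fold lower had 103 to 129 counts with RSA. A cluster of 2 features, 749 and 748 nt long, had 125 counts with RSA and 277 in mock, 2.22-fold lower (1.79 to 2.77). Its features had 18.7 and 106 counts with RSA, and 67.4 and 209.6 counts in mock. Whether reads were split unevenly between these features was not tested, and the sum does not depend on such a split.

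A feature of 414 nt, the shortest of the 33, had 129 counts with RSA and 265 in mock, 2.06-fold lower (1.66 to 2.56). It also had the highest level per length among them, at 64.6 TPM with RSA and 120.9 TPM in mock. A cluster with a main feature of 1087 nt had 118 counts with RSA and 253 in mock, 2.15-fold lower (1.72 to 2.70). Both lay close to the 2-fold limit.

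The last 2 of this group hold several features each. A cluster of 9 features had 111 counts with RSA and 248 in mock, 2.24-fold lower (1.78 to 2.83). Its main features, of 1008, 829 and 666 nt in mock, had 21, 60 and 29 counts with RSA, and 82.3, 114 and 49.7 counts in mock. They were lower by 3.93-, 1.90- and 1.72-fold. A cluster of 4 features, with a main feature of 1184 nt, had 103 counts with RSA and 237 in mock, 2.31-fold lower (1.82 to 2.93).

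The 22 scarcer clusters under 4-fold lower had 26 to 85 counts with RSA (median 39.5) and 69 to 199 counts in mock (median 101.5). Their ratios were 2.07- to 3.40-fold with a median of 2.47-fold, and their longest features measured 864 to 3262 nt. Their levels were 0.850 to 12.4 TPM with RSA and 2.61 to 37.2 TPM in mock. The highest value of each range came from a tiny feature rather than from the bulk of the reads. In the cluster at 12.4 TPM with RSA, a feature of 257 nt with 2 RSA counts made up 10.9 TPM. In the cluster at 37.2 TPM in mock, a feature of 205 nt with 1 mock count made up 29.7 TPM.

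**Figure D3:**
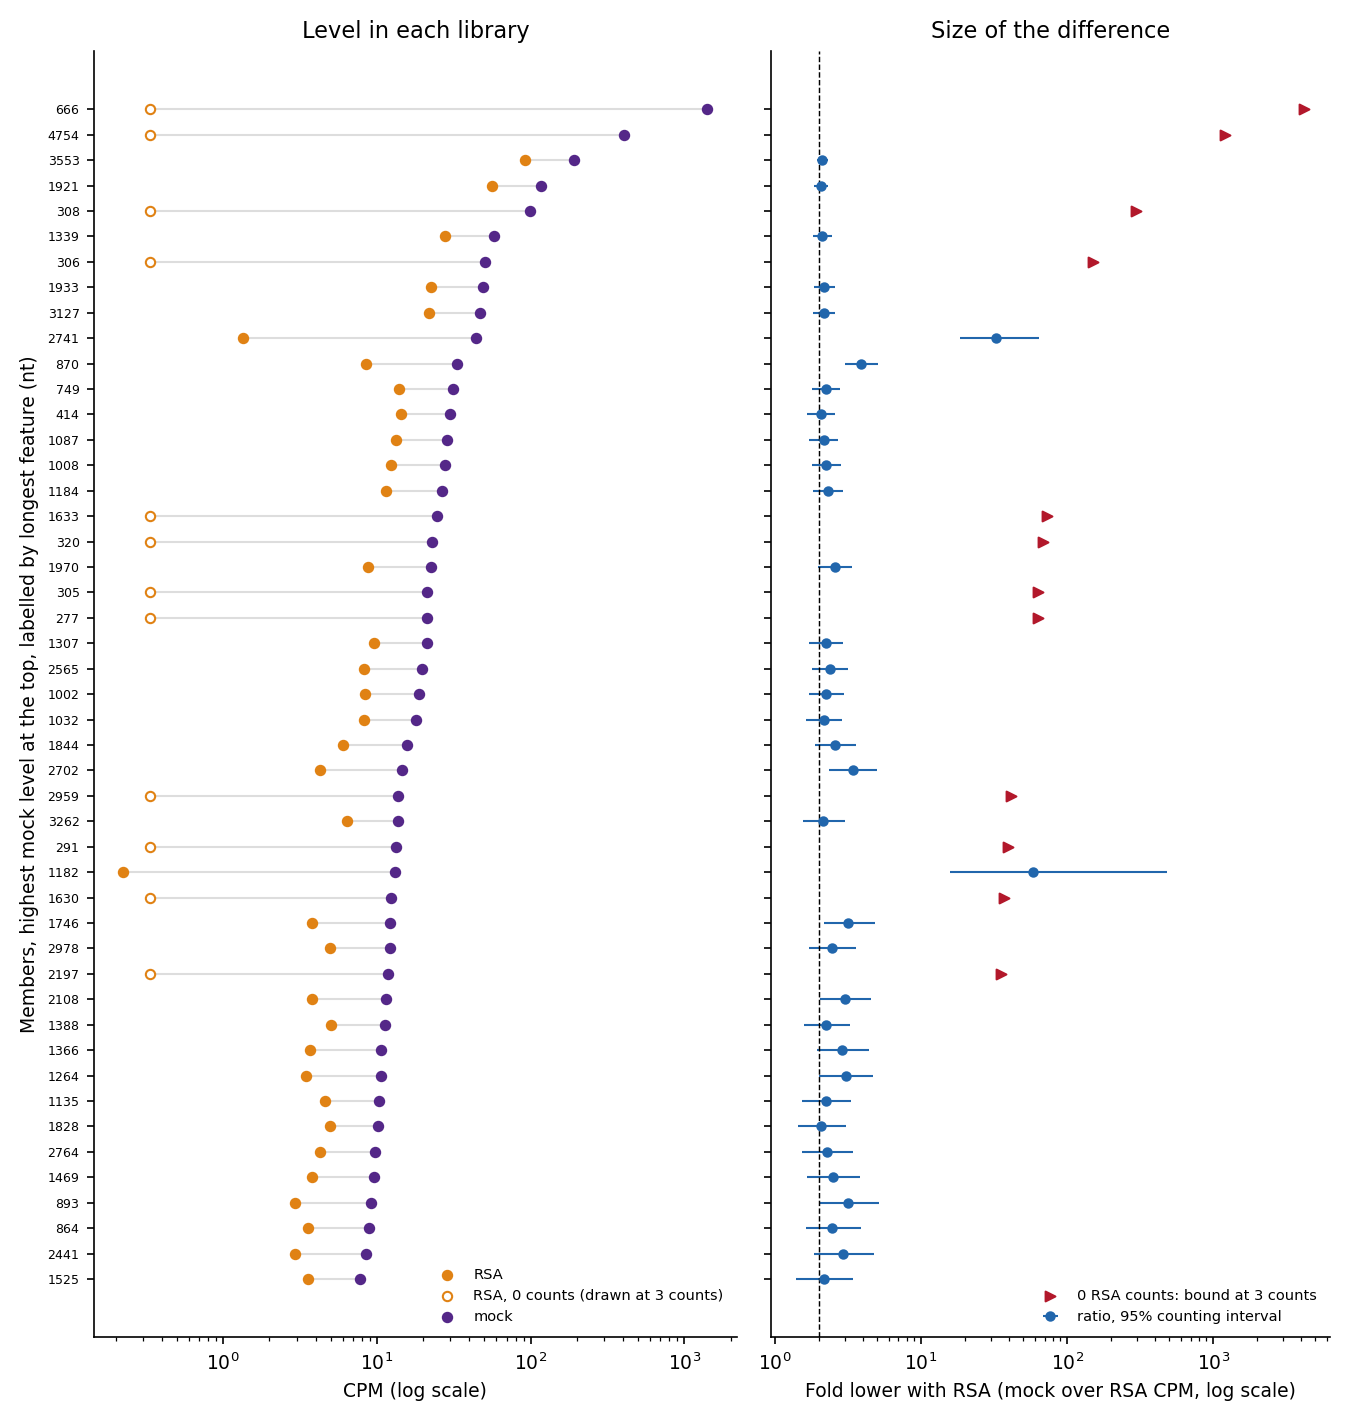
Left, CPM of each of the 47 lower clusters with RSA (orange; open circles at 3 counts where no count was found) and in mock (purple), 1 row per cluster, labelled by its longest feature in nt. Right, fold lower with RSA with its 95% counting interval (blue), or the bound set by 3 counts (red arrows); ratios from 2.06 to 3.89 stand apart from those at 32.7 and above.

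All 47 counting intervals lay above equality. The intervals use the counts that chose the clusters, and the rule's fold and count minimum together fix this in advance. It is therefore no separate evidence of a lower level. For 20 clusters only did the interval lie wholly beyond 2-fold, 6 of them under 4-fold lower. The 5 clusters just inside the limit had rule values of 2.004, 2.03, 2.06, 2.06 and 2.09. The 5 just outside had 1.97, 1.98, 1.98, 1.99 and 1.99. Just inside, a cluster of 1828 nt had 44 counts with RSA and 91 in mock. Just outside, a cluster of 445 nt had 90 counts with RSA and 182 in mock. The limit separates clusters whose intervals overlap widely, 1.43 to 3.04 for the first and 1.57 to 2.64 for the second.

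Lower clusters were found in 5 classes of mock abundance. With 1000 or more mock counts, 4 of 1508 compared clusters were lower (0.265%), and with 500 to under 1000 counts 2 of 1102 were (0.181%). The shares were 12 of 2191 (0.548%) at 200 to under 500 counts, 19 of 1987 (0.956%) at 100 to under 200 counts, and 10 of 1687 (0.593%) at 50 to under 100 counts. Clusters without an RSA count numbered 2, 1, 3, 6 and 0 in these 5 classes, from the most to the least abundant. The count minimum keeps a cluster with under 100 mock counts out unless it has RSA counts, so that none could appear in the last class. Together with the fold it also shuts out the scarcest clusters of that class, and the lowest mock count of a lower cluster was 69. The share of 0.593% is thus not comparable with the others. Over both libraries the lower clusters had a median of 193 counts, against 473 over all compared clusters.

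Features of the same lower cluster were lower together. Of the 47 clusters, 22 hold 2 or more features (46.8%, 32.1% to 61.9%), against 39.7% of all compared clusters. That interval counts clusters and not reads. It treats clusters chosen by a rule as random draws, so that it does not measure an error of the share. These 22 hold 69 features, of which 14 had no count in either library. All 35 features with 20 or more counts were lower with RSA, 28 of them at least 2-fold by the rule's value. Since the clusters were chosen on the sum of these counts, most of this is set by the choice. Only 3 features had more RSA than mock counts, and they summed to 4.83 counts with RSA and 0 in mock.

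In 13 of the 22 clusters 1 feature held over 90% of the mock counts. In 8 clusters 2 or more features had at least 20 counts, and in 4 of the 8 every such feature was at least 2-fold lower. These 4 had no RSA count, which fixes that outcome in advance. Each of the 8 that kept RSA counts held at least 1 such feature under 2-fold lower by the rule's value. In the largest cluster by feature number, with 10 features, the counts were 54 with RSA and 139 in mock. Its main features had 23, 8 and 18 counts with RSA, and 81, 29 and 23 counts in mock. The first and the second of them were lower by 3.53- and 3.63-fold and the last by 1.28-fold.

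**Figure D4:**
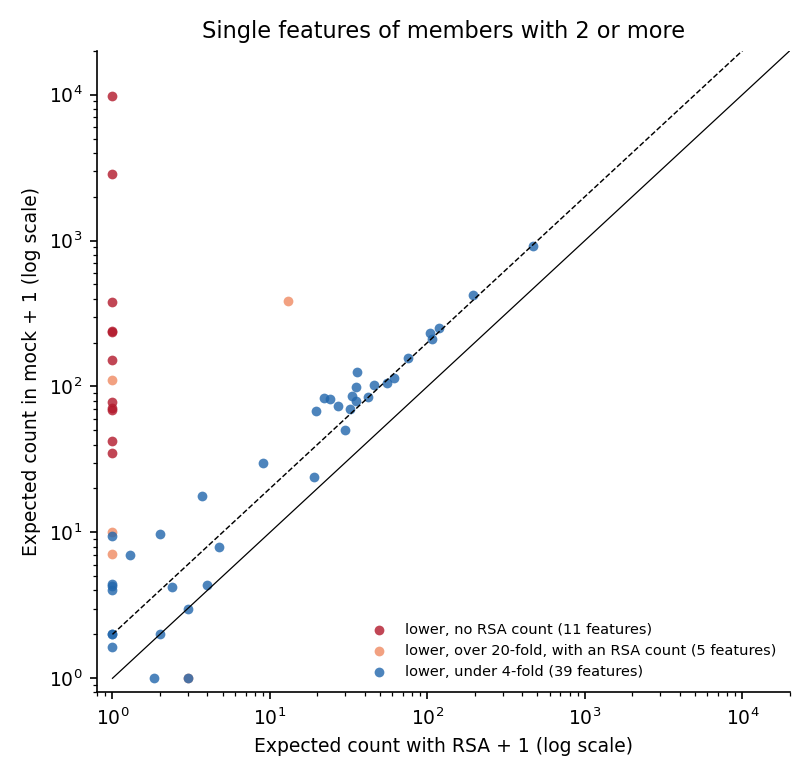
Expected count plus 1 with RSA (horizontal log axis) and in mock (vertical log axis) for the 55 features with a count in the 22 lower clusters that hold 2 or more features. The solid line marks equal counts and the dashed line 2-fold lower with RSA; all 35 features with 20 or more counts lie above the solid line.

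Single features gave more calls than cluster sums. Of 9961 features with 100 or more counts, 114 were at least 2-fold lower by the same rule (1.14%). Of the 114, 45 belong to 42 of the lower clusters, and 69 belong to 59 clusters that were not lower. None of the 69 is alone in its cluster, which the rule fixes, since a lone feature and its cluster have the same sum. Summed, those 59 clusters had rule values of 0.776 to 1.98 with a median of 1.19, so that mates with other changes made up the difference. The 47 clusters therefore leave out features that were at least 2-fold lower in clusters whose sums were not.

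The cluster sums were whole numbers, within 0.011 counts per feature, in both libraries for all 47 lower clusters and for 98.8% of all compared clusters. Whole sums were thus usual among the compared clusters and not particular to the lower ones. Whether reads of the lower clusters were divided with features outside them was not tested. A wider level of the identifiers, the part before the cluster number, joins clusters whose reads the assembler handled together. At this level 40 of the 47 stand alone, and no 2 of them share a group. The 7 other clusters in these groups included 3 with 100 or more counts, and none of those was at least 2-fold higher with RSA.

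These 3 neighbours were close to even between the libraries. A neighbour of 3322 nt had 24533 counts with RSA and 22027 in mock, next to a lower cluster with 38 counts with RSA and 86 in mock. A neighbour with a longest feature of 4785 nt had 4184 counts with RSA and 4451 in mock, next to the cluster of 10 features. The third, of 386 nt, had 71 counts with RSA and 86 in mock. For 44 of the 47 lower clusters the sum over the whole group was also at least 2-fold lower.

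In build the lower clusters were like the other compared clusters in some respects. The longest feature had a median of 1388 nt against 1530 nt over all compared clusters, and it was 1000 nt or longer in 74.5% of the lower clusters against 75.7%. For the 33 under 4-fold lower the median was 1469 nt and this share 84.8%. A single transcript was listed for 23.4% of the lower clusters and for 37.1% of all compared clusters. The median number of transcripts was 3 in the lower clusters and 2 over all compared clusters. Whether these shares differ beyond chance was not tested.

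The average length of a feature's transcripts was also compared. In the lower clusters the features with several transcripts and 20 or more counts with RSA and in mock numbered 23. For 4 of these (17.4%) the average length differed by 10% or more, and all 4 were longer with RSA. Over all such features it differed for 273 of 3617 (7.55%), of which 128 were longer and 145 shorter with RSA. These shares were not matched for abundance, and their difference was not tested. The feature of 666 nt in the cluster of 9 averaged 886 nt with RSA and 666 nt in mock. Another averaged 1801 nt with RSA and 1469 nt in mock, at 32 counts with RSA and 85 in mock. The others averaged 2456 and 3083 nt with RSA, and 2108 and 2764 nt in mock. The files give these lengths without an error.

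In TPM, 26 of the 35 lower clusters with an RSA count were also at least 2-fold lower when the TPM of their features were summed. Another 8 were lower by 1.67- to 1.98-fold. The remaining cluster was higher, at 12.4 TPM with RSA and 4.65 TPM in mock, through the feature of 257 nt with 2 RSA counts. Its main feature had 1.46 TPM with RSA and 4.65 TPM in mock.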

How the data were processed

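The submitters' processing notes name Trimmomatic, Bowtie2 and RSEM 1.2.0. Their settings, the assembler's version and strandedness were not given in the sources used here. Per the file headers, the authors deposited an expected count, a TPM value and an average and effective length in nucleotides for each of 45338 features. Expected counts were summed unrounded over 34166 clusters, and rounded for counting intervals and for size factors. Library totals scaled the main comparison. A count of 0 was bounded by 3 counts per library (0.336 CPM with RSA and 0.337 CPM in mock). Depth was 8923379 counts with RSA and 8904820 in mock. Intervals and floors cover counting error only, since reads are not independent molecules.

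The clusters and lists were chosen with earlier results of these data known. Identifiers are printed for the 2 members with the highest mock CPM. Without identifiers, the text gives all members with no RSA count, the 12 others with the highest mock CPM and the 5 on each side of the limit. Single features, groups of clusters and small features outside this rule were chosen after their values were seen. The script was tested on simulated counts with known folds and counting error only, which gives no error rate for the 47 clusters. Alternatives were TMM (edgeR 4.0.16), DESeq2 1.42.0 size factors, upper quartile, other added counts, minimums and folds, single features, wider groups of clusters and TPM. Calculations used Python 3.11.15, numpy 2.4.6, pandas 2.3.3, scipy 1.17.1, matplotlib 3.10.9 and R 4.3.3.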

Additional observations from a re-analysis of the deposited data

How the results depend on the processing

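No paired analysis was possible because each group has 1 library, and leaving out a library was not possible for the same reason. Among 76 values under alternatives, 43 were near the reported one, 33 moved and 0 reversed. Near meant within 1.5-fold for counts and within the 95% interval for the rest. For the share with 2 or more features that interval, 32.1% to 61.9%, is wide and measures no error, so that near says little there. Only the log2 changes of the 2 named clusters could count as reversed, and without RSA counts they could not. Their intervals have no lower end, and the scalings and added counts used could not remove clusters without an RSA count. Part of the 43 was thus fixed in advance. The number of lower clusters, 47 by the main rule, was 38 under TMM, 42 under upper quartile and 45 under DESeq2 size factors, and in each case all of these were among the 47. The other scalings thus lost 9, 5 and 2 of them, and the smallest ratio among the 47 was 1.88-fold under TMM. The number changed with the count minimum, to 372 lower clusters at 20 counts, 134 at 50, 23 at 200 and 4 at 1000. Of these, 121, 34, 6 and 2 had no RSA count, against 12 at 100 counts. The number compared changed too, with 8605 clusters at 100 counts and 2609 at 1000. It is not given here for the other minimums, so that the shares called there cannot be read. A 4-fold rule gave 14, an interval wholly beyond 2-fold 20, summed TPM plus 1 gave 73, and single features 114, of which 23 had no RSA count. The share of mock counts in the lower clusters, 0.310%, was 0.262% under TMM, 0.306% under DESeq2 and 0.292% under upper quartile. It was 0.318% with 0.5 or 1 counts added, 0.303% with 10 added, and 0.430%, 0.364%, 0.280% and 0.213% at minimums of 20, 50, 200 and 1000 counts. It was 0.217% at 4-fold, 0.226% for intervals beyond 2-fold, 0.519% for single features and 0.318% for TPM. The share with 2 or more features, 46.8%, was 78.1% for single features and 71.2% for TPM, and 35.0% to 52.2% under the other alternatives. The stricter and looser rules change how many clusters enter, and other causes were not tested. For the 2 named clusters the log2 change of -12.04 and -10.24 was -10.30 and -8.51 with 10 counts added and -11.50 and -5.75 for TPM plus 1. Both had no RSA count, so that these values follow the number added. Depth limits the scarce clusters, of which 24 had under 200 counts over both libraries.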
